A study of Homo sapiens with 3 samples.

Results

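Senescent cells have stopped dividing for good. The measurements described here ask what a pair of senescent states, reached by different routes, had in common against growing cells of the same line. For each gene the log2 signals of the senescent arrays were averaged, and the log2 signal of the growing array was subtracted. The result is called the pooled difference. Beside it stands the distance between the senescent arrays, given as the log2 signal in oncogene-induced senescence (OIS) minus that in replicative senescence (RS). All 3 arrays of the series were used, 2 senescent and 1 growing. Of 19775 genes with a probe set of their own, 13466 (68.1%) had a signal above 45.5 on at least 1 array and are called measured. The cut was the median of all values, lower values were raised to it, and the probe set with the highest mean log2 signal stood for its gene. The faintest genes kept, PAX9, PCDHGA3 and BARX2, reached 45.6, and the brightest left out, CHST4 and ATP2B3, reached 45.5.

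All cells were IMR-90 ER:Ras, human lung fibroblasts that carry an inducible Ras protein fused to part of the estrogen receptor. Growing cells had no treatment on their label, and no vehicle was named. OIS cells had received 100 nM 4-hydroxytamoxifen (4-OHT), the drug that switches the fusion protein on, for 6 days. RS cells had been passaged repeatedly over 10 weeks. The ER:Ras construct was present in every group, the growing and RS cells included, and all were kept in the same serum-containing medium. Each group was 1 culture on 1 array. No test, standard error or replicate check was therefore possible, and every value below is a description of these arrays.

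Cells that leave the cycle switch off the genes that copy and divide the genome. In arrested cells E2F sites and the CHR element (cell cycle genes homology region) are held silent by complexes of the retinoblastoma protein family, among them DREAM, which p53 and its target p21 bring about. Senescent cells also enlarge their lysosomes, reorganise the nuclear lamina and chromatin, and can release cytokines, growth factors and proteases, together called the secretory phenotype. Oncogenic Ras and exhausted telomeres are both known routes into this state.

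Signals are MAS5 intensities, a background-corrected brightness in arbitrary units, and are given in the order growing, OIS, RS. A fold is 2 to the power of the pooled difference. It is preceded by "at least" or "at most" where an array at or below 45.5 makes it a limit. The arrays were alike in scale, with 49.8% to 50.3% of 54613 probe sets above the cut and median signals from 44.9 to 46.2. For 6759 genes a second probe set was above the cut. The pooled differences of such pairs differed with an SD of 0.41, which is probe error and leaves out differences between cultures. The growing array enters every pooled difference, so its own error moves all of them, and the OIS and RS differences share it. It does not enter OIS minus RS. In bulk RNA, fewer cells of a kind and less RNA in each cell cannot be told apart.

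Pooled over both states, 402 genes were at least 2-fold higher than in growing cells, 2.99% of those measured, and 629 were at least 2-fold lower, 4.67%. Of these 1031 differences 39.0% were higher. When each array was centred on the median log2 signal of its measured genes the split became 498 higher and 504 lower, or 49.7% higher. The median pooled difference of all measured genes was 0.00. A second probe set had the same sign for 180 of 190 higher genes and for 288 of 301 lower genes, and it passed 2-fold itself for 96 and 184 of them.

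The directions differed in how close the senescent arrays lay. Among the lower genes 519 (82.5%) had OIS and RS signals within 2-fold of each other, and 405 (64.4%) within 1.5-fold. Among the higher genes 170 (42.3%) were within 2-fold and 107 (26.6%) within 1.5-fold. Over all measured genes, most of which passed no 2-fold difference, the shares were 89.3% and 74.6%, above those of both classes. The median distance, without sign, was 0.40 log2 units in the lower genes, 1.19 in the higher genes and 0.31 in all measured genes. Past 4-fold the gap was wider: 135 of 153 lower genes (88.2%) and 15 of 69 higher genes (21.7%) were within 2-fold. With only genes above the cut on all 3 arrays, 459 of 549 lower genes (83.6%) and 150 of 318 higher genes (47.2%) were.

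Of the higher genes 176 had an OIS signal at least 2-fold above RS and 56 the opposite. Over all measured genes the same distances were found for 738 genes (5.48%) and 709 genes (5.27%). A gene that is 4-fold higher in 1 state and level in the other reaches 2-fold by pooling. For 31 higher and 9 lower genes the senescent arrays lay on opposite sides of the growing array, so a pooled value alone describes neither state there. Genes of the division lists kept to a narrow band in the scatter of pooled difference against distance, and secretome genes fanned out towards OIS.

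**Figure D1:**
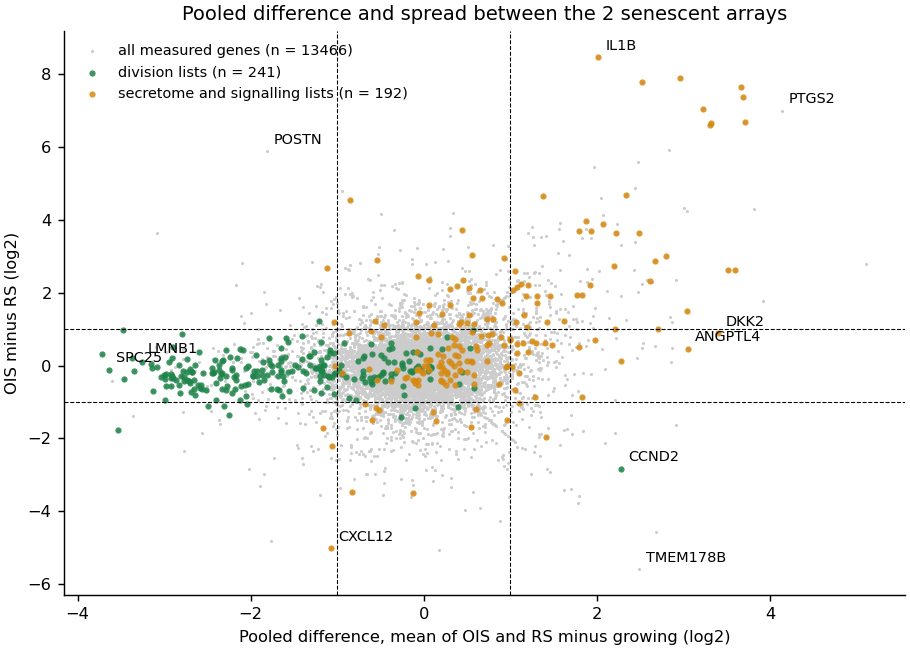
Each point is 1 of 13466 measured genes, with the pooled log2 difference from growing cells on the horizontal axis and OIS minus RS in log2 on the vertical axis; dashed lines mark 2-fold. Division genes (green, 241) lie to the left with 231 of them between the horizontal lines, and secretome and signalling genes (orange, 192) reach up to 8.48 for IL1B.

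The division genes were lower as a body. Of 241 measured genes in 11 lists that cover the cycle from licensing to cytokinesis, 171 were at least 2-fold lower and 1 was higher. Their median pooled difference was -1.65, with -1.72 in OIS and -1.59 in RS. In 231 (95.9%) the senescent arrays were within 2-fold of each other, and 161 were lower in OIS than in RS.

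Chromosome segregation held the largest differences. SPC25, a subunit of the NDC80 complex that couples kinetochores to microtubules, had signals of 1407, 109 and 117. Both senescent signals were far below the growing one and differed from each other by 1.08-fold, and the pooled value was 12.5-fold lower. Its partners were low as well: NDC80 read 2812, 307 and 379.9, and NUF2 2304, 209 and 399.6. CENPF, a kinetochore protein of late cycle, gave 2717, 254 and 279.7, or 10.2-fold lower. CENPA, the histone variant that marks the centromere, was 6.05-fold lower, and HJURP, which loads it, 7.97-fold. Over the list, 27 of 33 centromere and kinetochore genes were 2-fold lower, with a median of -2.25. The members nearest to no change were SKA2, at -0.33, and MIS12, at -0.40.

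Mitotic kinases and their partners were below growing cells by the probe set used: all 21 measured genes were at least 2-fold lower, with a median of -2.45. BUB1B, the checkpoint kinase BubR1, had signals of 2879.6, 231 and 297. BUB1 gave 2237, 259.5 and 267 and NEK2, a centrosome kinase, 3093, 335 and 314. In each of these genes OIS and RS lay within 1.5-fold of each other. CCNB1, the cyclin that drives entry into mitosis, read 8749, 1412 and 1388, and its kinase CDK1 5886, 802 and 1552. CDK1 was thus less reduced in RS than in OIS, by 1.93-fold. The smallest difference of the list was that of WEE1, the kinase that restrains CDK1, at 2.24-fold. Another WEE1 probe set stood at -0.41 pooled, and other CDK1 probe sets ran from -2.68 to -0.95.

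Spindle motors and cytokinesis genes had a median of -2.69, and 28 of 30 were 2-fold lower. The kinesin KIFC1 was at least 13.1-fold lower with signals of 667, 56.9 and 24.4. KIF20A, a kinesin of the central spindle, read 3239.5, 411 and 208 and so was lower in RS than in OIS. DLGAP5, a spindle assembly protein, gave 4919, 509 and 443, and ASPM, which organises spindle poles, 3685, 408 and 426. PRC1 and ANLN, which build the midzone and the contractile ring, were 7.29-fold and 5.71-fold lower. The exceptions were CKAP5, at -0.98, and TUBB, a tubulin used outside mitosis too, at -0.61.

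Among genes of the anaphase-promoting complex, separase and the passenger proteins 11 of 23 were 2-fold lower and 18 were below 0, with a median of -0.79. CDC20, the mitotic activator of the anaphase-promoting complex, had signals of 2739, 246 and 401, 8.71-fold lower. UBE2C, its ubiquitin-conjugating enzyme, was 6.83-fold lower, and the passenger proteins BIRC5 and CDCA8 were 6.86-fold and 7.02-fold lower. No gene of this list was 2-fold higher. Of the core subunits CDC23 stood at -0.70 and ANAPC4 at -0.24, while ANAPC5, CDC16 and CDC27 were among the 5 genes above 0, at 0.05, 0.07 and 0.08. Each of these last had another probe set below 0, in CDC27 at -1.02. Of 19 condensin and cohesin genes 8 were 2-fold lower and 18 were below 0, with a median of -0.70. The condensin I subunits NCAPH and NCAPG were 8.87-fold and 7.58-fold lower. The cohesin subunits SMC1A, RAD21 and STAG2 stood at -0.89, -0.70 and -0.04.

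**Figure D2:**
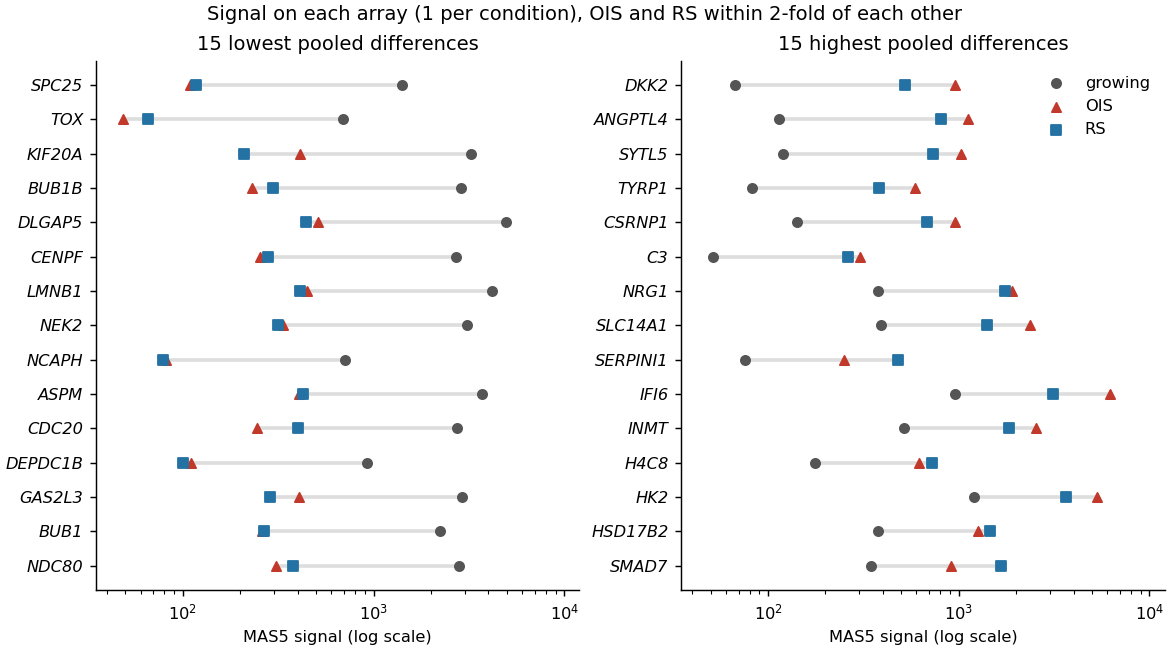
MAS5 signal on a log axis for the 15 lowest (left) and 15 highest (right) pooled differences among genes above 45.5 on all 3 arrays whose senescent arrays lie within 2-fold of each other; circles are growing, triangles OIS and squares RS, 1 array each. The senescent symbols lie close together and away from the circle, as for SPC25 at 109 and 117 against 1407.

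The promoters of these mitotic genes can be read beside the values. RefSeq windows from 250 bases before to 50 after the start (GRCh38.p14) were matched by symbol for 14 of the 15 lowest genes. The CHR element was searched as TTTGAA, alongside CCAAT, the box bound by NF-Y, on both strands. Of the 14, 8 held TTTGAA, 10 held CCAAT and 6 held both. The stretches below run from 150 bases before to 20 after the start and are those of the 15 lowest genes with both motifs inside that stretch. Capitals mark both motifs, on either strand.
SPC25: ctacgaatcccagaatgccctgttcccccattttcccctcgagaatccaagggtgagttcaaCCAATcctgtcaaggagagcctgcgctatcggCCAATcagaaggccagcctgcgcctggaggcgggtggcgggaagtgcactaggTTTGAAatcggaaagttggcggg
DLGAP5: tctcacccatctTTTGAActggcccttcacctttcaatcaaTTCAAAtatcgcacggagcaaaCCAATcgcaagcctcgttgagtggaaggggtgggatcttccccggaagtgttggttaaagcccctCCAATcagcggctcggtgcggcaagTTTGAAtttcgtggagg
ASPM: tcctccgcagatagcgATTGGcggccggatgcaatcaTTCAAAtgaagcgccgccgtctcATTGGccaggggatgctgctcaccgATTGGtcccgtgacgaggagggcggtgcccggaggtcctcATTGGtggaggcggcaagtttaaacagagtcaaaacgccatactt
CDC20: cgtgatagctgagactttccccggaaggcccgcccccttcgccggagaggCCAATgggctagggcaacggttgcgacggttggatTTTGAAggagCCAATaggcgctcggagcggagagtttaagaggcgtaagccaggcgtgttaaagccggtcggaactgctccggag
DEPDC1B: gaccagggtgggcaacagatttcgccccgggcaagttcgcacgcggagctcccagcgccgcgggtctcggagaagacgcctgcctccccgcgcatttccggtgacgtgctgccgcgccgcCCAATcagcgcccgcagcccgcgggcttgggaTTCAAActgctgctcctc

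SPC25 lies on the minus strand at chr2:168890411-168890580. DLGAP5 lies on the minus strand at chr14:55191566-55191735. ASPM lies on the minus strand at chr1:197146650-197146819. CDC20 lies on the plus strand at chr1:43358831-43359000. DEPDC1B lies on the minus strand at chr5:60700147-60700316. In SPC25 the CHR match began 3 bases before the start, and in DEPDC1B 3 bases after it. In CDC20 it lay 65 bases before the start, with CCAAT at 100 and 55 bases before it. A match describes letters in a window and is not evidence of binding.

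Over all genes the same elements were counted in 10870 of 13466 measured genes (80.7%) that had a promoter in the table. TTTGAA occurred in 10.2% of measured promoters and in 25.2% of the 497 promoters of lower genes. The share was 41.7% of the 127 promoters past 4-fold. It differed with the distance between the senescent arrays: 28.3% of 413 lower genes within 2-fold held TTTGAA against 9.52% of 84 lower genes that were further apart. For TTTGAA together with CCAAT these shares were 17.2% and 1.19%, beside 4.25% of all measured promoters. Of 354 lower genes outside the division lists, 69 (19.5%) held TTTGAA. GC content differed little, with medians of 63.3% in the lower genes and 65.0% in all measured promoters.

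The match lay near the start. In lower genes 7.85% of promoters had TTTGAA in the 50 bases before the start and 8.05% in the 50 after it, beside 1.35% and 1.59% of all measured promoters. Between 100 and 50 bases before the start, where CCAAT was most frequent, the shares were close, at 1.81% and 1.18%. Higher genes had TTTGAA in 11.0% of 308 promoters, near the share of all measured genes.

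**Figure D3:**
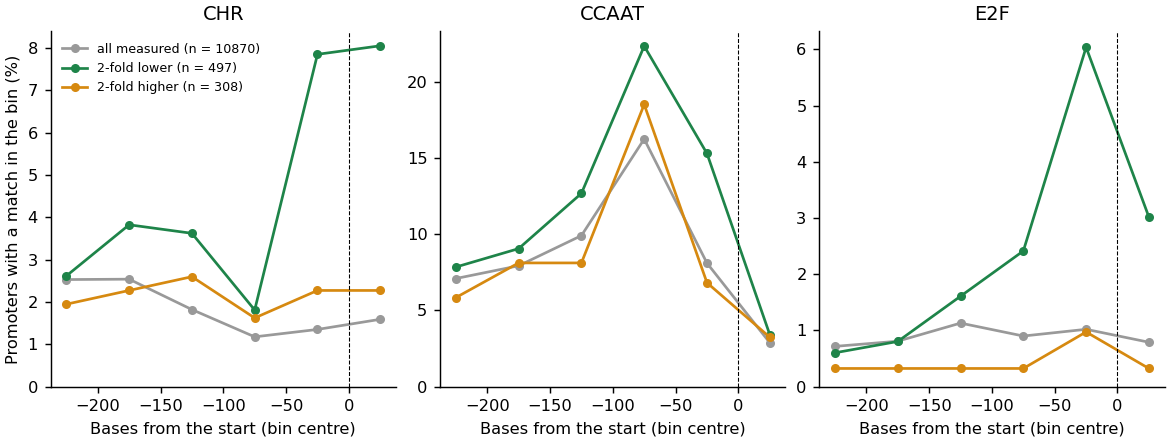
Percent of promoters with a match whose centre falls in each 50-base bin, plotted at the bin centre in bases from the start (dashed line). Shown are all measured genes, 2-fold lower and 2-fold higher genes. Panels are the CHR element, CCAAT and the E2F forms. The lower genes (green) stand above the others for CHR at both bins beside the start and for E2F in the 50 bases before it.

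Genes that license and copy the genome were lower too, and their promoters held another element. Origin licensing and firing had 22 of 26 genes 2-fold lower, with a median of -1.84. CDT1, which loads the MCM helicase onto origins, had signals of 1364, 63.6 and 217. It was 11.6-fold lower pooled, and the RS signal was 3.42-fold above the OIS one. Another CDT1 probe set was lower by less, at -0.60 pooled. The helicase subunit MCM2 read 1384, 241 and 275. The GINS subunit GINS2 gave 1720.4, 239 and 349.6, and CDC45, which completes the active helicase, 555, 108 and 59.0. The origin recognition subunits divided: ORC1 was at least 4.99-fold lower and ORC6 3.25-fold, whereas ORC2, ORC4 and ORC5 stood at -0.24, -0.21 and -0.26.

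E2F sites were searched as TTTCCCGC, TTTGGCGC, TTTGCCGC and TTTCGCGC on both strands. Of 23 origin genes with a promoter 12 held one and 1 held TTTGAA. Of 27 spindle genes with a promoter 3 held an E2F form and 20 held TTTGAA. The lists therefore differed in which element their promoters carried, while both were lower in OIS and RS. Over all measured promoters an E2F form was found in 5.20%, in lower genes in 13.3% and in higher genes in 2.60%. The stretches of the origin genes with the lowest pooled differences that held an E2F form near the start are shown with that form in capitals.
CDT1: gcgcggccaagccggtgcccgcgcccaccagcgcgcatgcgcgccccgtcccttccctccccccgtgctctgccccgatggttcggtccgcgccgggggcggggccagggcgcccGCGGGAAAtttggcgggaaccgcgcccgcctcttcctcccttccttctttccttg
GINS2: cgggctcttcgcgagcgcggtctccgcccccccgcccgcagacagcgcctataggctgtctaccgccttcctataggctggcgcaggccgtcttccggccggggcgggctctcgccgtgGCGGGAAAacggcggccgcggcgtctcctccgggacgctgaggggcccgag

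CDT1 lies on the plus strand at chr16:88803639-88803808. GINS2 lies on the minus strand at chr16:85688935-85689104. Both carried the form 35 and 31 bases before the start, in that order, reading GCGGGAAA on the gene's strand.

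At the fork 22 of 31 genes were 2-fold lower, with a median of -1.32. POLE2, a subunit of the leading-strand polymerase, had signals of 1189, 189 and 219, and RFC3, of the clamp loader, 2292, 389.5 and 578. PCNA, the sliding clamp that also serves repair, was 2.12-fold lower at 10321, 5462 and 4319. UHRF1, which carries DNA methylation through replication, was 4.49-fold lower. Of the enzymes that supply deoxynucleotides, RRM2 and TYMS were 4.56-fold and 3.83-fold lower, and 6 of 10 list members passed 2-fold. SAMHD1, which degrades deoxynucleotides, lay at 0.57, from 1619, 3360 and 1712, a difference seen on the OIS array, with other probe sets from -0.36 to 0.68. Homologous recombination and Fanconi genes had 15 of 19 members 2-fold lower, among them BRCA1 at 652, 107 and 208 and RAD51AP1 at 2965, 404 and 586.

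Upstream regulators were uneven. FOXM1 and MYBL2, the transcription factors of mitotic genes, were 5.43-fold and 6.49-fold lower. E2F8 read 519, 59.5 and 70.9 and was 7.99-fold lower, while its relative E2F7 read 2427, 4149 and 2959 and lay at 0.53. Both are repressor forms of E2F. E2F1 was faint, at 108, 69.8 and 83.9. RB1 stood at -0.25, and its relatives RBL1 and RBL2 at -2.49 and -0.09. In all, 7 of 19 regulators were 2-fold lower.

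G1 cyclins went in both directions. CCNE2 and CCNA2 were 4.95-fold and 5.14-fold lower, and CCND1 lay at 0.58. CCND2, a D-type cyclin, was the only division gene past 2-fold upwards, with signals of 414, 752 and 5349. The RS array carried that difference, being 7.12-fold above OIS.

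The nuclear envelope and chromatin proteins showed a smaller reduction, led by a few genes. LMNB1, lamin B1 of the nuclear lamina, had signals of 4163, 450.2 and 410.5, 9.68-fold lower, with the senescent arrays 1.10-fold apart. TMPO and LBR, inner membrane proteins that bind lamins, were 4.33-fold and 3.12-fold lower, and LMNB2 was 2.02-fold lower. LMNA, which encodes lamins A and C, stood at -0.21. HMGB2 read 15068, 2476 and 1925 and was 6.90-fold lower, beside -0.48 for its relative HMGB1. HMGA2, known as a component of senescent heterochromatin, was above growing cells on both arrays, at 14419.6, 21397 and 21322, a pooled 0.57. Its other probe sets ran from -0.23 to 0.70. EZH2, the Polycomb methyltransferase that silences the p16 locus, was 3.97-fold lower. Over this group of lists 14 of 99 genes were 2-fold lower and 5 higher, with a median of -0.45, and 95 had senescent arrays within 2-fold.

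All 5 of the higher genes in that group were histone genes. H4C8 gave 176, 622 and 727, H2BC4 318, 759 and 974 and H2BC5 1363, 3088 and 3358. H2AX, the variant phosphorylated at DNA breaks, was 2.99-fold lower at 4845, 1753 and 1498. Histone genes of a family are nearly identical, so the copy read by a probe set is uncertain.

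**Figure D4:**
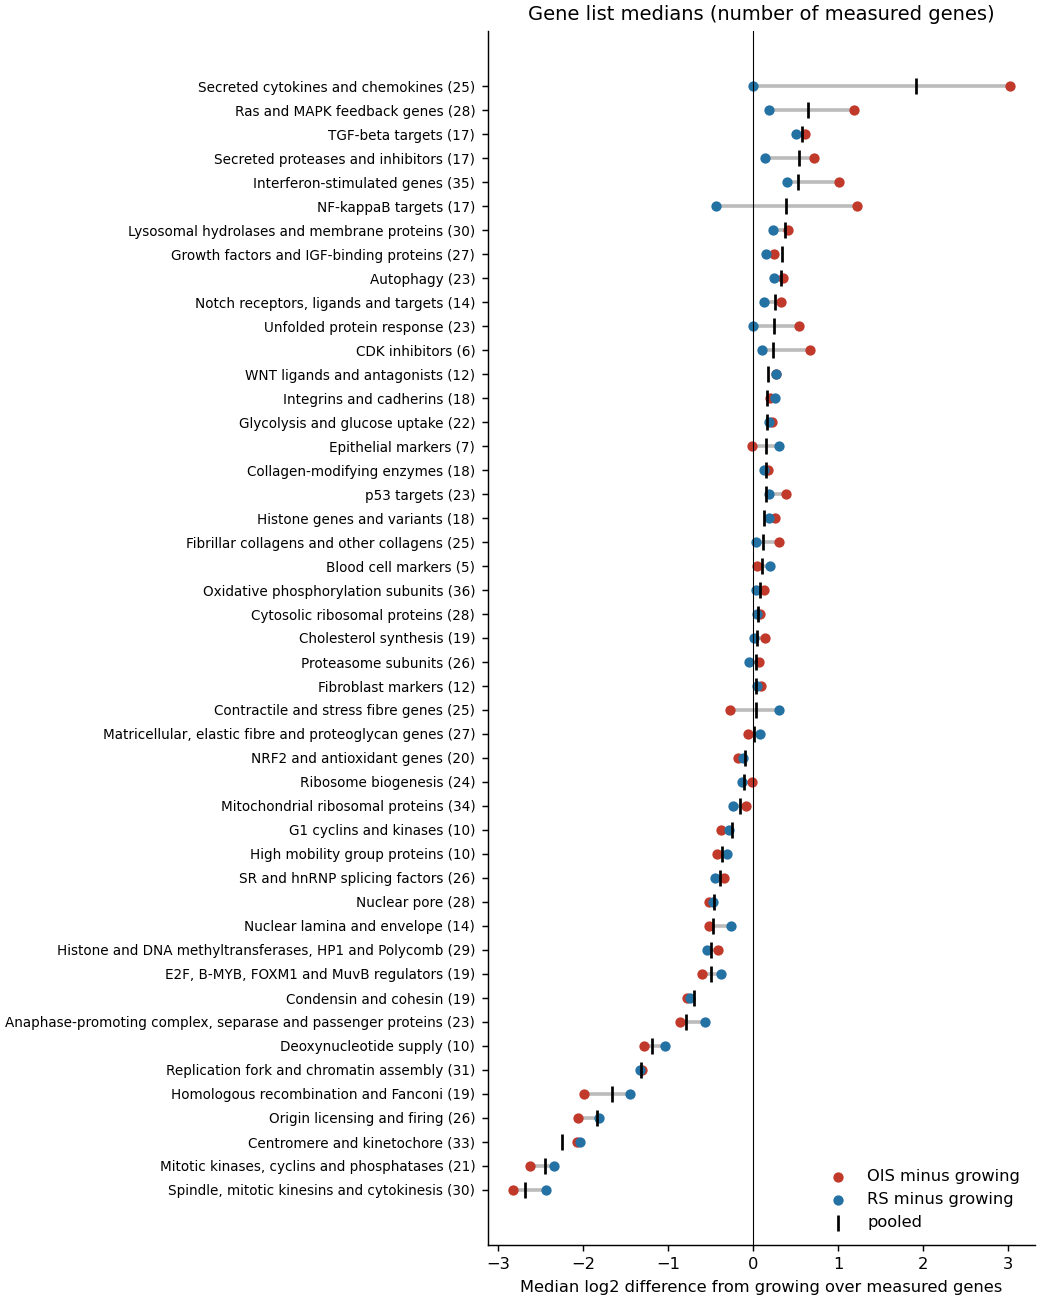
Median log2 difference from growing cells over the measured genes of each list with at least 5 of them (number in brackets), for OIS (red), RS (blue) and the pooled value (black tick). The origin, fork, mitotic kinase, kinetochore and spindle lists lie left of -1 in both states, condensin and cohesin genes lie at -0.78 in OIS and -0.74 in RS, and the cytokine list has OIS at 3.02 and RS at 0.00.

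Inhibitors of the cyclin-dependent kinases were not uniform. CDKN2A, which encodes p16 and ARF, had signals of 432, 1040 and 1115. It was 2.49-fold higher with the senescent arrays 1.07-fold apart. CDKN1A, which encodes p21, read 6064, 15759.9 and 8247, 1.88-fold higher pooled and short of 2-fold, mostly from OIS. CDKN2B, the p15 gene beside CDKN2A, gave 743, 7373 and 1230, and its OIS signal was 5.99-fold the RS signal. Another CDKN2B probe set stood at 0.62 pooled, short of 2-fold. CDKN1B, the p27 gene, was 2.13-fold lower on pooling. Of 6 inhibitors measured 2 were 2-fold higher and 1 lower.

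Targets of p53 were mostly near their growing level, with a median of 0.15 and 2 of 23 past 2-fold upwards. PLK3, a stress-responsive kinase, read 172, 611 and 366, higher on both arrays with this probe set, while its others ran from -0.35 to 0.50 pooled. GDF15, a secreted stress cytokine, read 1643, 22452 and 1748, so its pooled 3.81-fold came from OIS. Other GDF15 probe sets ran from 0.42 to 0.62 pooled, short of 2-fold. MDM2, the p53 ligase, lay at 0.10, and RRM2B, the p53-inducible reductase subunit, at 0.82.

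Lysosomal genes were displaced upwards by a small amount and together: 27 of 30 were above 0, the median was 0.37, and 4 passed 2-fold. FUCA1, a lysosomal fucosidase, had signals of 105, 259 and 274, and NPC1, a cholesterol exporter of the lysosome, 834, 2271 and 1724. Both senescent arrays were above growing cells in these. CTSS and CTSK, cathepsins, were 3.82-fold and 3.10-fold higher pooled, but CTSS read 133, 1702 and 152. Among autophagy genes 18 of 23 were above 0 with a median of 0.33, and none reached 2-fold. The highest was MAP1LC3B, a coat protein of autophagosomes, at 4204, 7939.6 and 7512.

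The unfolded protein response had a median of 0.25, 0.54 in OIS and 0.00 in RS. Its sensor ERN1 and the chaperone DNAJB9 were 2.49-fold and 2.26-fold higher, with both senescent arrays above growing cells. Other ERN1 probe sets ran from 0.60 to 0.66 pooled, short of 2-fold, and those of DNAJB9 from 1.11 to 1.23. ASNS, asparagine synthetase, was 2.50-fold lower at 6732, 4444 and 1628. Of 20 NRF2 and antioxidant genes 3 were 2-fold lower and none higher. SLC7A11, the cystine transporter, gave 8674, 4332 and 3718, and AKR1C1 4055, 1801 and 2019.9.

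The genes highest on both senescent arrays, within 2-fold of each other, were of mixed function. DKK2, a secreted WNT antagonist, had signals of 66.9, 959.6 and 521, 10.6-fold higher. ANGPTL4, a secreted inhibitor of lipoprotein lipase, read 115, 1117 and 808, 8.28-fold higher. NRG1, a ligand of the ERBB receptors, read 376, 1910.2 and 1756 and the complement protein C3 51.4, 303 and 263. The senescent arrays were 1.09-fold and 1.15-fold apart in these. Other NRG1 probe sets ran from 0.30 to 3.23 pooled. SYTL5, a vesicle transport protein, was 7.27-fold higher, CSRNP1, a nuclear factor, 5.74-fold, and the urea transporter SLC14A1 4.66-fold. TYRP1, known from melanosomes, was 5.77-fold higher at 82.1, 589.5 and 381.

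Several of these genes belong to signalling feedback or metabolism. SMAD7, the inhibitor of TGF-beta signalling, had signals of 348, 915 and 1662, with RS above OIS. IFI6, an interferon-induced mitochondrial protein, read 959, 6235 and 3134. HK2, the hexokinase of fast glycolysis, read 1199, 5308 and 3650.2, 3.67-fold higher. Its other probe sets ran from 0.25 to 0.73 pooled. HSD17B2, a steroid dehydrogenase, and INMT, an N-methyltransferase, were 3.57-fold and 4.17-fold higher. SERPINI1, a serine protease inhibitor, was 4.61-fold higher at 75.3, 251 and 481. Of the 15 highest, 11 had a promoter in the table, and among these 1 held TTTGAA, 2 held CCAAT and none an E2F form.

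Genes with strong signal on every array gave smaller folds that rest less on the cut. SERPINE2, a secreted protease inhibitor, read 9929.9, 16373 and 25866, and PLAT, tissue plasminogen activator, 5259, 17237 and 11199. ITGB5, an integrin chain, gave 5352, 11478 and 11742, and SLC20A1, a phosphate transporter, 9773, 27294 and 21486. AMIGO2, an adhesion protein, read 5312, 9058 and 16649. On the lower side stood HMGN2 at 18745, 8733 and 9463, DEK at 11769.7, 5903 and 5446 and ANP32B at 11153, 4917 and 5799.9, all chromatin-associated proteins. TRMT5, a tRNA methyltransferase, was 2.47-fold lower, although another TRMT5 probe set stood at -0.02 pooled. PSAT1, of serine synthesis, was 2.26-fold lower. These 10 genes were chosen past 2-fold on pooling with OIS and RS within 2-fold of each other. That choice by itself puts both senescent arrays on the same side of the growing array.

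Secreted cytokines made up the clearest case in which pooling hides a difference. Their median pooled difference was 1.92, made of 3.02 in OIS and 0.00 in RS. Of 25 measured, 15 were 2-fold higher and 2 lower, and in 17 the OIS signal was at least 2-fold above RS. These values include genes above the cut in OIS alone, such as CXCL2. Such a gene counts as 0 in RS, so the RS median of 0.00 does not show an absence of change. IL1B had signals of 269, 20515 and 57.6 and IL1A 89.7, 10735 and 41.9, so both interleukin-1 genes were below growing cells in RS. The neutrophil chemokines CXCL1 and CXCL5 read 186, 24635 and 241 and 121, 10296 and 46.4. CXCL2 was at 22.8, 7577 and 17.8 and has no pooled fold, since growing and RS signals were both under the cut. IL6 and CXCL8 differed in that RS was also somewhat above growing cells, with 753, 14925 and 1193 and 1779.7, 30857 and 4186.

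Not all cytokines followed. CXCL12, a stromal chemokine, read 547, 16.2 and 1479, low in OIS and high in RS. TSLP, an epithelial-type cytokine, read 1636, 1894 and 298, lower in RS only. TNFSF15, a TNF family ligand, did follow, at 164, 17619 and 134. So did PTGS2, the inducible enzyme of prostaglandin synthesis and not a cytokine, at 96.5, 19178 and 149.9. PTGS2 had the largest pooled fold of the genes with the widest OIS to RS distances, 17.6-fold, from 199-fold in OIS and 1.55-fold in RS.

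Promoters of these genes held yet another element. The NF-kappaB form, the capitals in the CXCL1 stretch below with any base allowed at the fifth position, was found on either strand in 0.607% of measured promoters and in 6 of 20 cytokine promoters. It was in 7 of 133 higher genes (5.26%) with OIS at least 2-fold above RS and in 0 of 135 higher genes with close senescent arrays. The AP-1 form TGANTCA was found in 4.84% of measured promoters, 11.3% of those 133 and 5.93% of those 135. CXCL1 is shown, as the cytokine with the highest pooled difference that has the NF-kappaB form in the stretch, in capitals.
CXCL1: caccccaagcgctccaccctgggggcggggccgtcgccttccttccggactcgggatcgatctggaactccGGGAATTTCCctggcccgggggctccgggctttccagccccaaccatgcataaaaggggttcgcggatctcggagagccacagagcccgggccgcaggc

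CXCL1 lies on the plus strand at chr4:73869243-73869412. The form began 79 bases before the start. AP-1 and NF-kappaB forms were thus seen more often in the promoters led by OIS, and CHR and E2F forms in the promoters of lower genes. An E2F form was in 13.6% of lower genes with close senescent arrays and in 11.9% of those further apart. The cytokine and OIS-led counts share genes, CXCL1 among them.

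**Figure D5:**
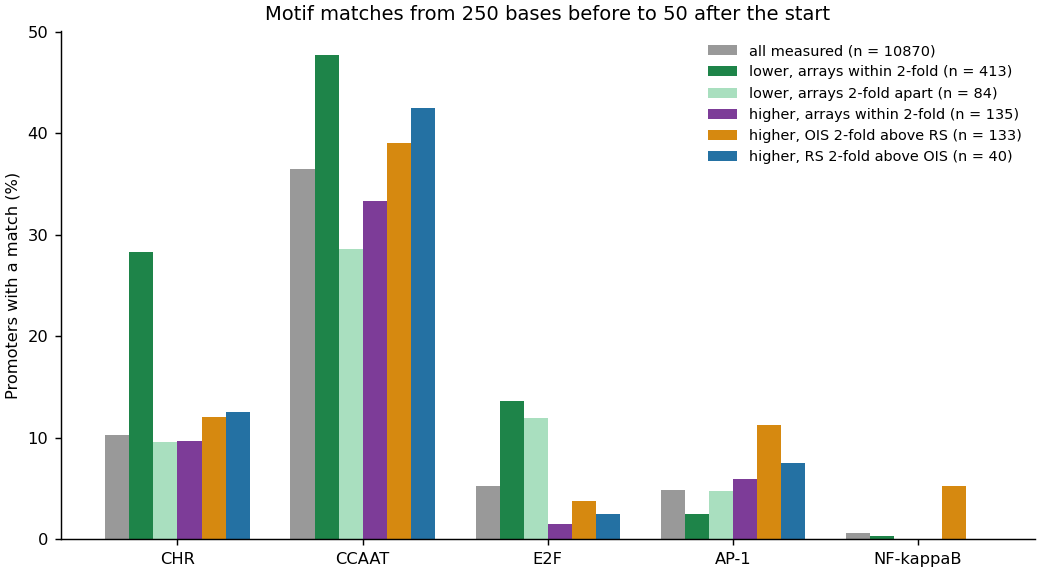
Percent of promoters, from 250 bases before to 50 after the start, that hold each motif in 6 sets of genes: all measured, lower with senescent arrays within 2-fold or further apart, and higher with arrays within 2-fold, OIS at least 2-fold above RS, or RS at least 2-fold above OIS (number of promoters in the legend). The lower genes with close arrays reach 28.3% for CHR, and the NF-kappaB form is 5.26% in the OIS-led set and 0 in both other higher sets.

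Targets of NF-kappaB other than cytokines had a median of 0.39, from 1.22 in OIS and -0.44 in RS. ICAM1, a leukocyte adhesion receptor, read 349, 4335 and 337. NFKBIZ, an inducible cofactor of NF-kappaB, read 779.9, 10671 and 2128 and was above growing cells on both arrays. The inhibitor NFKBIA read 2093, 5830.1 and 1287, below growing cells in RS. In 12 of 17 of these genes OIS was at least 2-fold above RS, and 4 passed 2-fold on pooling.

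Interferon-stimulated genes had medians above 0 in both states. The pooled median was 0.53, with 1.01 in OIS and 0.40 in RS, and 10 of 35 were 2-fold higher. IFI27 had signals of 92.3, 1273 and 450.5 and ISG15, a ubiquitin-like modifier, 2859, 9712 and 6546. MX1, an antiviral GTPase, was at least 6.50-fold higher at 24.5, 417 and 209.7. Of the 35 genes 6 were below 0, none of them 2-fold lower. IFIT2, at 427, 207 and 237, and GBP1, at 3598, 2758 and 3494, were below growing cells on both arrays.

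Of 28 feedback and early response genes of Ras and MAPK signalling 9 were 2-fold higher on pooling and 5 were below 0. Their median was 0.64, from 1.19 in OIS, where the construct was switched on, and 0.19 in RS. DUSP4, a MAPK phosphatase, had signals of 48.5, 1445 and 236 and the Sprouty gene SPRY4 394, 1639.8 and 1144. DUSP6, the ERK phosphatase, read 4633, 18717 and 8209. EGR1, an early response factor, was above growing cells mainly in OIS, at 2558, 8699 and 2652. FOSL1, a subunit of AP-1, lay the other way in OIS, at 680.3, 312 and 695, and its relative FOSL2 read 1141, 679 and 901. The HRAS probe set read 7696, 11748 and 2553, lowest in RS. Whether it reads the ER:Ras construct was not tested.

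TGF-beta targets were among the more even of the signalling lists, with medians of 0.61 in OIS and 0.50 in RS, and 6 of 17 genes 2-fold higher. TGFB2 read 1039, 1882 and 3429, SKIL, a SMAD corepressor, 2488, 4975 and 5099.9, and PMEPA1, another inhibitor of the pathway, 542, 1495 and 968. Both senescent arrays exceeded growing cells in all of these, although another TGFB2 probe set lay at -0.10. Growth factors had 7 of 27 higher and 2 lower. EREG, an EGF receptor ligand, read 949.9, 18659 and 2328, and BMP2 1034, 17049 and 1371. INHBA, the activin subunit, was 2.29-fold higher at 9809, 32485 and 15566. HBEGF, another EGF family member, had nearly equal senescent signals, 580.1, 1125 and 1138. Secreted proteases and inhibitors had 7 of 17 higher and 1 lower. MMP3, stromelysin, read 1417, 20539 and 1322 and PLAUR, the urokinase receptor, 2854, 5686 and 6556. MMP1, interstitial collagenase, read 17604, 33064 and 4444, on opposite sides of growing cells.

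Notch, WNT and collagen genes moved singly. HEY1, a Notch target, read 124, 1467 and 219.6, and the Notch ligand gene JAG1 1038, 1978 and 2048, with another JAG1 probe set at -0.04 pooled. WNT16, a WNT ligand, read 766, 1028 and 4026. SFRP1, a WNT antagonist, read 14402, 3539 and 11722. COL15A1, a basement membrane collagen, was 4.23-fold lower at 4304, 966 and 1074, both senescent arrays alike, whereas COL1A1 stood at 0.08. CEMIP, which degrades hyaluronan, was 6.83-fold lower at 5210.5, 337 and 1724. POSTN, periostin, read 11197, 24524 and 412, so its pooled 3.52-fold reduction came from RS alone and OIS was above growing cells. With log2 of the mean linear signal the pooled value turned to 0.155, and other POSTN probe sets ran from -1.98 to 0.35.

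Contractile and stress fibre genes averaged out on pooling, with a median of 0.03. Quantile normalization put that median at -0.03. In 24 of 25 the OIS signal was below the RS signal, under this scaling too, with medians of -0.27 in OIS and 0.31 in RS. CNN1, calponin, had signals of 2442, 1084 and 5749.6 and TAGLN, transgelin, 14190, 6804 and 22028. ACTA2, smooth muscle actin, read 15226, 16060.5 and 27518. MYH10, a non-muscle myosin, was the one gene lower by 2-fold, at 5512, 2876 and 2463, and lower in both states.

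Genes led by RS were fewer among the higher class. The following were named after their values were seen. TMEM178B read 56.3, 27.3 and 2193 and ANKRD1, a mechanically regulated nuclear protein, 55.1, 72.0 and 1726. TENM1, a teneurin, gave 93.8, 87.7 and 1191, and ACTC1, cardiac actin, 64.1, 60.4 and 640.5. In all of these OIS was near or below the growing level. On the lower side SOX11, a transcription factor of development, was at least 8.48-fold lower at 1359.9, 565 and 43.3, and NPTX1, a pentraxin, read 7533, 4656 and 662, lower in both states and more so in RS. Genes led by OIS on the lower side included PPARG, the adipocyte regulator, at 779, 71.7 and 515, OXTR, the oxytocin receptor, at 1952, 108 and 3058, and RELN, reelin, at 1569.8, 155 and 1223.

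Housekeeping lists served as the background. Of 215 genes of ribosomes, respiration, glycolysis, sterol synthesis, splicing and the proteasome, 2 were 2-fold higher and none lower. Their median was 0.01, and 211 (98.1%) had senescent arrays within 2-fold. Cytosolic ribosomal proteins had a median of 0.06, which quantile normalization turned to -0.05, and respiratory subunits one of 0.08.

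Fibroblast markers were all measured, 12 of 12, with summed signals of 163384, 157463 and 174628. Of these 12 genes 6 were above 0 and 6 below, 2 of them were 2-fold higher, and 9 had senescent arrays within 2-fold. COL1A2 stood at -0.01 and PDGFRA at 0.07. S100A4, a calcium-binding protein, was 2.42-fold higher at 1237, 2257 and 3966. DCN, the proteoglycan decorin, read 20075, 7746 and 22971, low in OIS. PDPN, podoplanin, read 55.9, 556 and 52.2, high in OIS only. Of 11 epithelial markers 7 were measured, with CDH1, KRT5, KRT14 and CLDN4 not above the cut on any array. All 11 together, those under the cut included, summed to 3620, 3606 and 6759. KRT18 gave 2987, 2963 and 6010.1 and made up most of that sum. Of 9 endothelial markers 4 were measured, and CDH5, KDR, TIE1, CLDN5 and EMCN were not above the cut. The sums over all 9 were 1496, 2162 and 2257. For blood cells 5 of 9 markers on the array were measured, and all 9 summed to 405, 495 and 460. Neural markers had 2 of 8, adipocyte markers 2 of 6 and muscle markers 3 of 8 measured. GFAP, SOX10, ADIPOQ and PLIN1 were not above the cut. The part of other cells in the differences above was not tested.

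The called genes differed from the rest in a few plain properties. The median gene length was 34704.5 bp in the lower genes, 25182 bp in the higher genes and 28902 bp in all measured genes. Long noncoding RNAs were 3.82% of the lower, 2.99% of the higher and 6.28% of all measured genes. The median signal in growing cells was 737 for lower, 136 for higher and 567 for all measured genes. Part of that order follows from the choice, since a gene must be above the cut somewhere and the growing signal is the base of each difference.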

How the data were processed

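RNA of 3 IMR-90 ER:Ras cultures was measured on 1 Affymetrix array each. The authors deposited 1 intensity value for every probe set, on a linear scale. The tool named in the submitters' processing notes is MAS5, whose settings, like the genome build, were not given in the sources used here. It corrects background and scales each array to a common mean, which removes a shift of all genes in 1 direction. Groups came from the labels.

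Of 54613 probe sets 41091 named a single gene, 1801 several and 11721 none in the platform annotation, and only the first were used. Values below 45.5 were raised to it and log2 was taken. The brightest probe set stood for its gene. Pooled difference, OIS minus RS, counts past 2-fold and list medians were computed over all measured genes. The members and the gene lists were chosen with earlier results of these data known.

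Named genes were the 15 highest and 15 lowest pooled differences among genes above the cut on all arrays, with OIS and RS within 2-fold and other probe sets of the same sign. Added were the 8 in each direction with the widest OIS to RS distance, the 5 brightest in each direction, 24 fixed genes (21 measured), the 2 highest and 2 lowest members of each of 51 lists, and single list members described by role. Members with no probe set of their own are not analysed here.

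Promoter windows were those of RefSeq (GRCh38.p14), matched by symbol. The number of arrays limits the precision. The steps were tested on simulated data. Alternatives were quantile normalization, centring, other cuts, log2(value + 16), no filter, the median of all probe sets, no cross-hybridizing probe sets, log2 of the mean linear signal, the smaller of both differences and 3-fold. Python 3.11.15, numpy 2.4.6, pandas 2.3.3 and matplotlib 3.10.9 were used.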

Additional observations from a re-analysis of the deposited data

Results flagged for a closer look

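The following differ between the senescent states in that OIS and RS lay on opposite sides of growing cells, with 1 array each, so the difference was not tested. Each is given as OIS minus RS in log2. Among secreted and signalling genes IL1B was at 8.48, with signals of 269, 20515 and 57.6 in the order growing, OIS, RS. CXCL5 was at 7.79 with 121, 10296 and 46.4, and TNFAIP6, a hyaluronan-binding inflammatory protein, at 4.56 with 729.8, 1964 and 83.4. CXCL12 was at -5.02 with 547, 16.2 and 1479. Among matrix and adhesion genes POSTN was at 5.90 with 11197, 24524 and 412, and the integrin chain ITGB8 at 4.78 with 808, 2207 and 80.3, where another ITGB8 probe set had a pooled value of 0.20 against -0.94. SYNPO2, an actin-bundling protein, was at -4.28 with 207, 86.8 and 1686. As lists, NF-kappaB targets had a median of 1.38 and contractile and stress fibre genes of -0.45.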

How the results depend on the processing

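The counts of genes past 2-fold, 402 higher and 629 lower, stayed within 1.5 times of these under 8 of 11 alternatives, from 289 to 530 higher and from 480 to 705 lower. Leaving out the filter is 1 of the 8 and could not change these counts, since it adds only genes with a pooled difference of 0. With the cut at the 25th percentile, 11.7, they were 986 and 1276, with 57.3% of the higher and 72.2% of the lower genes having senescent arrays within 2-fold. At 3-fold they were 132 and 262. With the smaller of both differences, which share the growing array, they were 144 and 405, with shares of 73.6% and 94.1%. The shares were 47.9% and 79.3% with log2(value + 16), 35.7% and 88.9% with log2 of the mean linear signal, and 87.4% for the lower genes with the median of all probe sets. In each of these the share was larger for the lower genes. The pooled value of CXCL12 turned to 0.479 and that of POSTN to 0.155 with the mean linear signal. Counting each list once under each alternative, the median stayed within 0.41 log2 units, the probe error, 460 times and moved 7 times. Counted likewise, the value of a named gene stayed 2199 times and moved 222 times. Some of these could not have moved. Centring shifts every pooled difference by the same amount, below 0.41, so its 47 lists and 248 named genes had to stay. Without the filter the 248 named genes had to stay too. Of the higher genes 318 and of the lower genes 549 were above the cut on all arrays, and the cut bears on the folds of the others. No paired analysis was possible because each condition had 1 array. With 1 array per condition no replicate could be left out.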

Other observations

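Some lists were displaced by small amounts on pooling with most members on the same side, which counts past 2-fold do not show. Of 26 SR and hnRNP splicing factors 25 were below 0, with a median of -0.39, and none passed 2-fold. HNRNPH3, a splicing regulator, lay at -0.78, and SRSF5 was the member above 0, at 0.46. Of 28 nuclear pore genes 25 were below 0 with a median of -0.46, led by NDC1, a membrane-anchored pore protein, at -1.72. Of 34 mitochondrial ribosomal proteins 25 were below 0 with a median of -0.16. In the other direction 28 of 36 subunits of oxidative phosphorylation were above 0 with a median of 0.08, and 18 of 22 glycolysis genes with a median of 0.16. Quantile normalization left 19 of the 36 subunits above 0, with a median of 0.01, and centring the arrays on the median gene left 19 of the 34 mitochondrial ribosomal proteins below 0, so these small shifts move with the scaling. Apart from HK2 the glycolysis member past 2-fold was PFKFB3, which makes the activator of phosphofructokinase, at 2.29-fold higher. Members of a list share the arrays and are not replicates.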
